A study of Mus musculus with 2 samples.

Results

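The cytosolic ribosomal proteins are the protein part of the large (60S) and small (40S) ribosomal subunits, named Rpl and Rps after the subunit. Their genes were selected by symbol from the annotation of the array, taking every probe set (the oligonucleotides that together report 1 transcript) that named exactly 1 gene. This gave 46 of the 18193 genes on the array, 24 of the large and 22 of the small subunit, with 44 and 56 probe sets, 100 in all. A further 110 probe sets named a symbol of this kind together with other genes. They were left out of every gene value, and 28 symbols reached only through them, among them Rpl5, Rpl26, Rplp1, Rpl3 and Rpl10, are not analysed here.

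The study set T cells that had met cultured retinal pigment epithelium (RPE), the pigmented layer that supports the photoreceptors, against T cells that had not. Its title concerns suppression of interleukin-17-producing helper T cells. Each group was 1 biotin-labelled Affymetrix array, and both samples were labelled as male mice of C57 BL/6 background, 6 weeks old. The control was called control T cells in its source and CD4 T cells in its title, whereas the exposed sample was called T cells in title and source but primary cultured RPE in its tissue field. The labels name no genotype, stimulus or exposure time. A single array per group leaves nothing to measure variation between samples with, so no test was made and the precision of each value below is limited by the number of arrays.

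Ribosomal proteins are made in near-equal amounts because each ribosome holds about the same set, and surplus ribosomal proteins are degraded. Their mRNAs are among the most abundant of a growing cell. In mammals they begin with a cytosine followed by a run of pyrimidines, the terminal oligopyrimidine (TOP) tract, through which the mTOR pathway and the RNA-binding protein Larp1 set their translation. T cells that are activated enlarge and build ribosomes, with Myc and mTOR as drivers. The amount of such an mRNA, which is what the array reads, is therefore not the amount of protein made from it.

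Start-site sequence, which the selection by symbol did not use, is shown for 8 members. Rplp2, Rpl38, Rps10 and Rpl13a were picked because they hold the pyrimidine stretch searched for and had bright signals. Rpl12, Rpl14 and Rps27 are the 3 members past 1.2-fold, and Rps27l is the paralog of Rps27. Each is 30 bases around the annotated RefSeq start (build GRCm38.p6), 15 before and 15 from the start onward, on the transcript strand. Capitals mark the first CTTTC in the window, a pyrimidine stretch typical of TOP starts, which need not lie at the start itself. In Rps27 the capitals begin at base -8, before the start, and an unmarked CTTTC lies just after it. In Rpl13a and Rpl12 they begin at bases 10 and 11.
Rplp2: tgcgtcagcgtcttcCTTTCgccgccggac
Rpl38: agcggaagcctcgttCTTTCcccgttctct
Rps10: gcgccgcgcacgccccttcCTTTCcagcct
Rpl13a: gaaaccctgcgacaagacctcctcCTTTCc
Rpl12: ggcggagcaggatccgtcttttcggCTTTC
Rpl14: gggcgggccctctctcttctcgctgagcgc
Rps27: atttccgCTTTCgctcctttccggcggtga
Rps27l: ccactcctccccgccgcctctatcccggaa
The windows are chr7:141447636-141447665 (plus strand) for Rplp2, chr11:114668565-114668594 (plus) for Rpl38, chr17:27635230-27635259 (minus) for Rps10 and chr7:45128731-45128760 (minus) for Rpl13a. They are chr2:32961697-32961726 (plus) for Rpl12, chr9:120571502-120571531 (plus) for Rpl14, chr3:90213634-90213663 (minus) for Rps27 and chr9:66946071-66946100 (plus) for the first of the entries of Rps27l.

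In Rplp2 and Rpl38 the CTTTC began on the annotated first base, whereas the windows of Rpl14 and Rps27l held none. The annotated start of Rpl14 is still a cytosine followed by a run of pyrimidines. RefSeq gave 48 promoter entries for 40 of the 46 members. CTTTC lay in this window on the transcript strand in 11 of the 48, or 22.9%, against 4.05% of all 32851 promoter entries, and on the opposite strand in 0 of 48 against 3.60%. The letters CTTCCG, the core to which Ets factors such as GABP bind, lay on either strand of the whole 300-base promoter in 62.5% of member entries against 16.9% of all. Both were present in 10 member entries, and the stretches can overlap. These matches are descriptions of letters, not of binding. The 11 members with CTTTC had a median log2 difference of 0.048 and the other 27 with an entry and a signal a median of 0.033, a difference that was not tested. Because a start such as that of Rpl14 lacks CTTTC, this split does not separate TOP starts from others.

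Ribosomal protein signals were almost the same in control and RPE-exposed T cells. Signals are linear intensities as deposited, and the median signal of each array, 15.9 for control and 16 for exposed cells, served as a floor. Of the 46 members, 44 lay above it on both arrays and 2 on neither. A member was represented by its brightest probe set. The control signals of the 44 had a lowest value of 36, a median of 5383 and a highest of 7194.3. In RPE-exposed cells the same values were 35.6, 5606 and 7497.4. The log2 difference, RPE-exposed minus control, had a median of 0.042, or 2.98% higher, against -0.0092 over the 11015 genes compared. Of the 44 members, 37 lay within 10% of equal signal. Over all genes compared, 44.4% did.

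**Figure D1:**
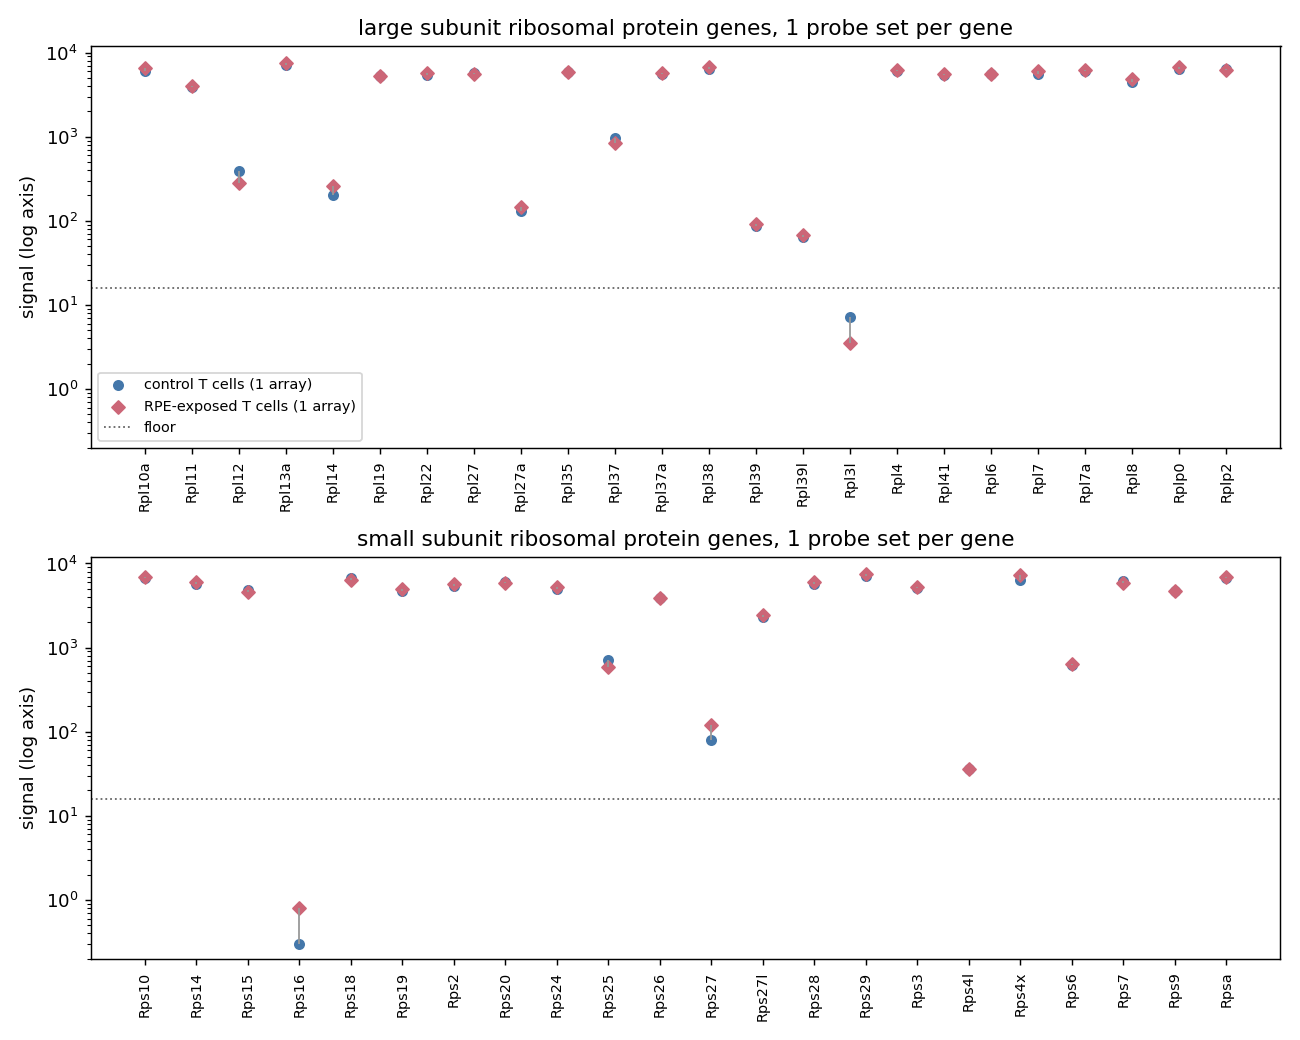
Signal (log axis) of each ribosomal protein gene on the control array (blue circles) and the RPE-exposed array (red diamonds), 1 probe set per gene, with the floor dotted. For most genes the symbols coincide, with 33 genes at 3000 or more, and Rpl3l and Rps16 lie under the floor.

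At a fold of 1.2, which is 0.26 on the log2 scale, 1 of 44 members was lower in RPE-exposed cells, beside 16.7% of all genes compared, and 2 of 44 were higher, beside 14.2%. None was 2-fold lower or higher, against 0.626% and 0.436% of all genes. Bright genes of any kind varied less on this pair of arrays, so bright genes alone were also taken as background. Among all genes with a mean signal of 500 or more, 5.17% were 1.2-fold lower and 6.21% higher. Of the 37 members at that level, 0 were in either direction. At 2-fold the same bright genes gave 0.207% lower and 0.0517% higher, and the members 0 of 37. These groups were not of equal signal: the 37 members had a median control signal of 5557, the 1896 other genes 882. At 3000 or more, 0 of 33 members passed 1.2-fold in either direction. Of the 105 other genes at that level, 0 were 1.2-fold lower and 1 was higher.

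**Figure D2:**
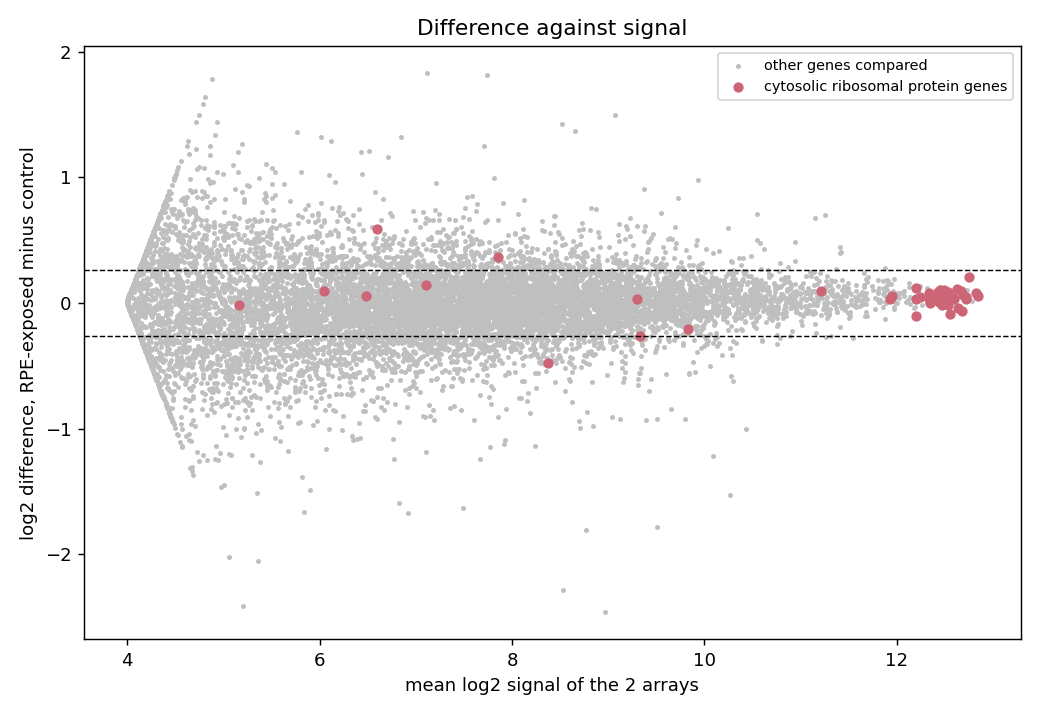
Log2 difference, RPE-exposed minus control, against the mean log2 signal of both arrays, for ribosomal protein genes (red) and the other genes compared (grey). Dashed lines mark 1.2-fold. The band of grey points narrows to the right, where 33 of the red points lie at signals of 3000 or more.

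The narrow spread was shared with other genes of the highest signals. The 33 members at 3000 or more had an SD across genes of 0.062, and the 105 other genes at that level 0.073. The median was 0.038 for these members and 0.061 for the other genes. A majority of both sets had small positive differences, 27 of 33 and 87 of 105. The lean of the members depended on the scaling. After quantile normalization, which gives both arrays the same distribution, 13 of the 33 members were positive and 18 negative, with a median of -0.0079, while 61 of the 105 other genes were positive and 42 negative, with a median of 0.014. Of the 100 brightest probe sets with 1 gene, 56 belonged to members. How far the arrays' range compressed differences at these signals was not tested.

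The subunits had like medians. The 23 large-subunit genes above the floor had a median of 0.058 and the 21 small-subunit genes 0.036. At 500 or more both medians were 0.036. After quantile normalization the large-subunit median was -0.0079 and the small-subunit median 0.0075. Among probe sets of the same member at 500 or more, the pooled SD of the log2 differences was 0.075 (18 genes). Probe sets of 1 gene share the same RNA and are no replicates of cells or animals. No test of the difference between the subunits was made.

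In the large subunit, the stalk genes were read at high signals. Rplp0, the protein that anchors the stalk to which elongation factors dock, gave 6298.0 in control and 6742.2 in exposed cells, a log2 difference of 0.098. Rplp2, one of the acidic stalk proteins, gave 6442.3 and 6279.0, or -0.037. The stalk genes thus lay on opposite sides of equality, with Rplp0 7.05% above control and Rplp2 at -2.53%. After quantile normalization their log2 differences were 0.022 and -0.098.

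Rpl8, a protein close to the peptidyl transferase centre, gave 4497.1 and 4885.4 (0.12). Rpl10a, near the exit site for tRNA, gave 6095.9 and 6581.4 (0.11). Rpl19, which reaches across to the small subunit, gave 5196.8 and 5210.8 (0.0039). Each of these 3 genes had a single probe set.

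Rpl7 gave 5555.7 and 5976.1 (0.11), and its 3 probe sets averaged 0.085 ± 0.034 (SD). Rpl27 gave 5685.3 and 5631.4 (-0.014), with 3 probe sets at -0.068 ± 0.049 (SD). All 3 probe sets of Rpl7 were positive and all 3 of Rpl27 negative. Rpl38, known for its part in translating Hox mRNAs, gave 6466.9 and 6758.0 (0.064 but -0.013 after quantile normalization). The other bright large-subunit members, Rpl4, Rpl6, Rpl7a, Rpl35, Rpl37a and Rpl41, had differences from 0.011 to 0.038.

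Large-subunit members with roles outside translation were no exception. Rpl11, which binds the p53 regulator Mdm2 when ribosome assembly fails, gave 3865.8 and 4027.9 (0.059, but -0.0079 after quantile normalization). Rpl13a, a component of the complex that silences inflammatory mRNAs after interferon-gamma, gave 7040.2 and 7430.2 (0.078). Its 4 probe sets averaged 0.096 ± 0.054 (SD), and each was positive.

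Rpl22, which is needed for the development of alpha-beta T cells, gave 5376.7 and 5783.3 (0.11) with its brightest probe set and 4289.5 and 4313.6 with the next. The remaining probe set, at 299.3 and 207.5, gave -0.53, so that the mean of all 3 was -0.14. The bright and the dim probe sets of Rpl22 therefore pointed in different directions. Rpl22l1, its paralog, is outside the selection by symbol and gave 3669.5 and 3947.6 (0.11).

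The large-subunit members farthest from equality had dimmer signals and 1 probe set each above the floor. Rpl12, a protein of the stalk base, gave 391.4 in control and 281.3 in exposed cells, 1.39-fold lower (-0.48). Rpl14 gave 203.9 and 262.6, 1.29-fold higher (0.37). Rpl37, a small zinc-binding protein, gave 977.2 and 845.3 (-0.21), and Rpl27a gave 131 and 144.6 (0.14). No second probe set above the floor was present to set beside any of these 4.

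**Figure D3:**
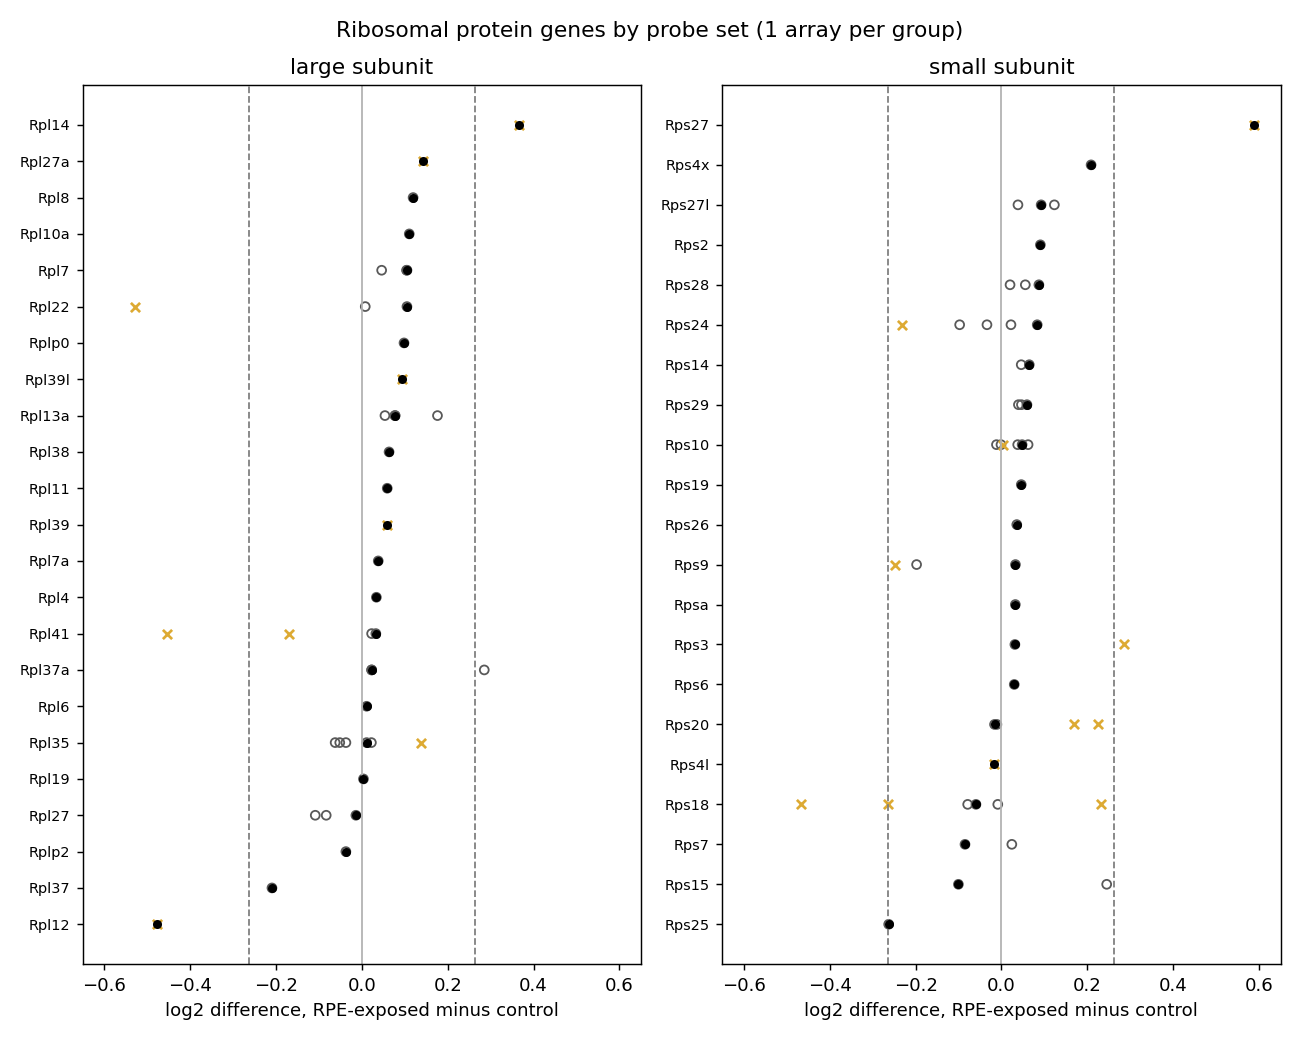
Log2 difference, RPE-exposed minus control, of each ribosomal protein gene above the floor. Black dots are the probe set that stands for the gene, open circles its other probe sets with a mean signal of 500 or more, orange crosses probe sets under 500, and dashed lines 1.2-fold. The farthest crosses include Rpl22 (-0.53) and Rpl41 (-0.45), and the farthest circle among second probe sets is Rpl37a (0.29).

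In the small subunit, Rpsa, also known as a laminin receptor, gave 6665.5 and 6817.2 (0.032 but -0.015 after quantile normalization). Rps2, at the mRNA entry, gave 5349.6 and 5697.1 (0.091). Rps3, a protein of the mRNA entry that also binds the NF-kappaB subunit p65, gave 5104.8 and 5217.3 (0.031), while a dim probe set at 194.5 and 237.1 gave 0.29. Only the dim reading of Rps3 passed 1.2-fold.

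Rps19, the gene most often mutated in Diamond-Blackfan anaemia, gave 4758.6 and 4913.8 (0.046). Rps10 had 6 probe sets at 0.023 ± 0.030 (SD), the brightest at 6640.0 and 6866.0. Rps28 gave 5746.6 and 6105.3 (0.087), with 3 probe sets at 0.054 ± 0.034 (SD). Rps29 had the highest signals of a member's probe set on both arrays, 7194.3 and 7497.4, with 3 probe sets at 0.049 ± 0.010 (SD). By the brightest probe set of these 4 genes the exposed array was a few percent brighter, within the lean that other bright genes showed. Across its probe sets Rps10 ran from -0.011 to 0.062. After quantile normalization Rps29 was at 0, Rps19 at 0.0075, Rps10 at 0.0093 and Rps28 at 0.060.

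Rps6, the small-subunit protein that S6 kinases phosphorylate downstream of mTOR, gave 624.4 and 637.5 (0.030) with the 1 of its 2 probe sets that was above the floor. Rps4x, encoded on the X chromosome, gave 6386.2 and 7381.2, which is 1.16-fold higher (0.21, but 0.13 after quantile normalization). It had the largest difference among the probe sets that stand for members at 3000 or more. Its second probe set, at 1.2 and 1.1, lay under the floor on both arrays. The mean over both, 0.11, therefore holds only 1 measured difference.

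On the lower side, Rps7, another Mdm2-binding protein, gave 6178.6 and 5826.1 (-0.085), while its second probe set gave 0.024. Rps15, whose tail reaches the decoding site, gave 4860.7 and 4534.9 (-0.10) with its brightest probe set and 3085.7 and 3657.4 (0.25) with the other. The sign of Rps15 thus depended on the probe set. Rps18, of the subunit head, gave 6698.7 and 6429.1 (-0.059), and its 6 probe sets averaged -0.11 ± 0.24 (SD).

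Rps25, a protein used by viral internal ribosome entry sites, gave 706.9 and 589.3 (-0.26), just short of 1.2-fold lower, from 1 probe set. Rps16 was under the floor on both arrays with its only 1-gene probe set, at 0.3 and 0.8. Its other readings on this array were shared with other genes.

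Some members have a close relative among the selected genes. Rps27, a zinc-finger protein of the small subunit, gave 79.2 in control and 119 in exposed cells with its only 1-gene probe set (0.59), the largest difference of any member. With the floor at the 75th percentile this was 0.35. Its paralog Rps27l, a target of p53, gave 2299.4 and 2451.8 (0.093), with 3 probe sets at 0.085 ± 0.043 (SD). The reading of Rps27l was close to equality on all 3 probe sets, and that of Rps27 rested on 1 dim one.

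Rpl39, which lines the exit tunnel, gave 87.7 and 91.3 (0.058), and its testis-enriched paralog Rpl39l gave 63.7 and 68 (0.094). Rps4l gave 36 and 35.6 (-0.016). Rpl3l, the striated-muscle form of Rpl3, was under the floor on both arrays at 7.2 and 3.5. Probe sets differ in how strongly they hybridise, so these signals do not rank the amounts of different transcripts.

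Differences were wider among dim probe sets. Of the member probe sets that cleared the floor, 72 had a mean signal of 500 or more and 20 a lower one. The SD of their log2 differences was 0.089 for the first and 0.31 for the second, beside 0.19 and 0.34 for probe sets of other genes. At 3000 or more the SD was 0.067 for 60 member probe sets and 0.075 for 134 of other genes. In 9 members that had probe sets on both sides of 500, the dim mean lay farther from 0 than the bright mean in 8, all but Rps10. The dim mean was the lower one in 6 of the 9. For Rpl41, 2 bright probe sets gave 0.023 and 0.033 and 2 dim ones -0.45 and -0.17. For Rps20, the bright ones gave -0.010 and -0.016 and the dim ones 0.17 and 0.22.

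Probe sets whose names end in x, s or a, which mark probes shared between transcripts or sequences, made up 69 of the 100, 40, 3 and 26 of each kind. Of these 69, 64 had a mean signal of 500 or more, against 8 of the 31 without such an ending. How much of the bright readings came from similar sequences, such as processed pseudogenes, was not tested. The 105 shared, multi-gene probe sets above the floor had a median difference of 0.019, and 87 of them lay within 10% of equality.

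The rest of the translation machinery was read on the same arrays. Among elongation factors and other TOP mRNAs, 0 of 19 genes were 1.2-fold lower and 1 was higher, with a median of 0.037 (-0.014 after quantile normalization). Over all genes compared, 16.7% were lower and 14.2% higher. The gene of the list past 1.2-fold was Vim, the intermediate filament vimentin, at 1799.7 and 2885.1 (0.68). Next was the elongation factor subunit Eef1d (0.16), and lowest were the initiation factor subunits Eif3k (-0.12) and Eif3f (-0.10). Of 18 initiation factors 0 passed 1.2-fold in either direction, and the median was 0.057, from Eif3d (-0.18) to Eif3c (0.19). The ribosomal proteins Fau and Rps3a1, outside the symbol rule, gave 0.022 and 0.020, and with Rpl22l1 and Rpl7l1 (-0.031) 0 of 4 such genes passed 1.2-fold. These 3 lists were bright, with median control signals of 3372, 1746 and 4030 against 135 over all genes. Among all genes at 500 or more, 5.17% were lower and 6.21% higher. Of the 105 genes at 3000 or more that are not members, 0 were lower and 1 was higher.

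Mitochondrial ribosomal proteins, which build a separate ribosome inside mitochondria, had a median of 0.074 over 76 genes. At 1.2-fold, 1 was lower (Mrpl33, -0.28) and 9 were higher, led by Mrpl37 (221.1 and 295.6, 0.42) and Mrpl54 (238 and 310, 0.38). The share higher, 9 of 76, was no larger than the 14.2% of all genes. These genes were brighter than most, with a median control signal of 479 against 135. Among all genes at 500 or more, 6.21% were higher.

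Genes that assemble ribosomal subunits had a median of -0.095 over 22 genes, 14 of them negative. At 1.2-fold 2 were lower, the nucleolar gene Gnl3 (915.5 and 758.9, -0.27) and Wdr12 (465.7 and 386.3, -0.27), and 0 were higher. The share lower, 2 of 22, was below the 16.7% of all genes, and after median centring neither passed. The list had a median control signal of 433, and among all genes at 500 or more 5.17% were lower. Mdm2, the p53 regulator, was the most positive at 0.20, followed by Bop1 (0.11).

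Among 15 regulators of ribosomal protein synthesis, 3 were 1.2-fold lower, beside 16.7% of all genes, and 0 higher, with a median of -0.038. Myc, which drives ribosome production, gave 1111.9 in control and 754.9 in exposed cells (-0.56). Eif4ebp1, the translation repressor that mTOR inactivates, gave 253.2 and 196.4 (-0.37). Larp4, which stabilises ribosomal protein mRNAs, gave 596.9 and 468.2 (-0.35). Max, the partner of Myc, gave 258.3 and 305.8 (0.24), and Rps6kb2 gave 0.16. Whether these differences bear on the ribosomal protein signals was not tested.

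**Figure D4:**
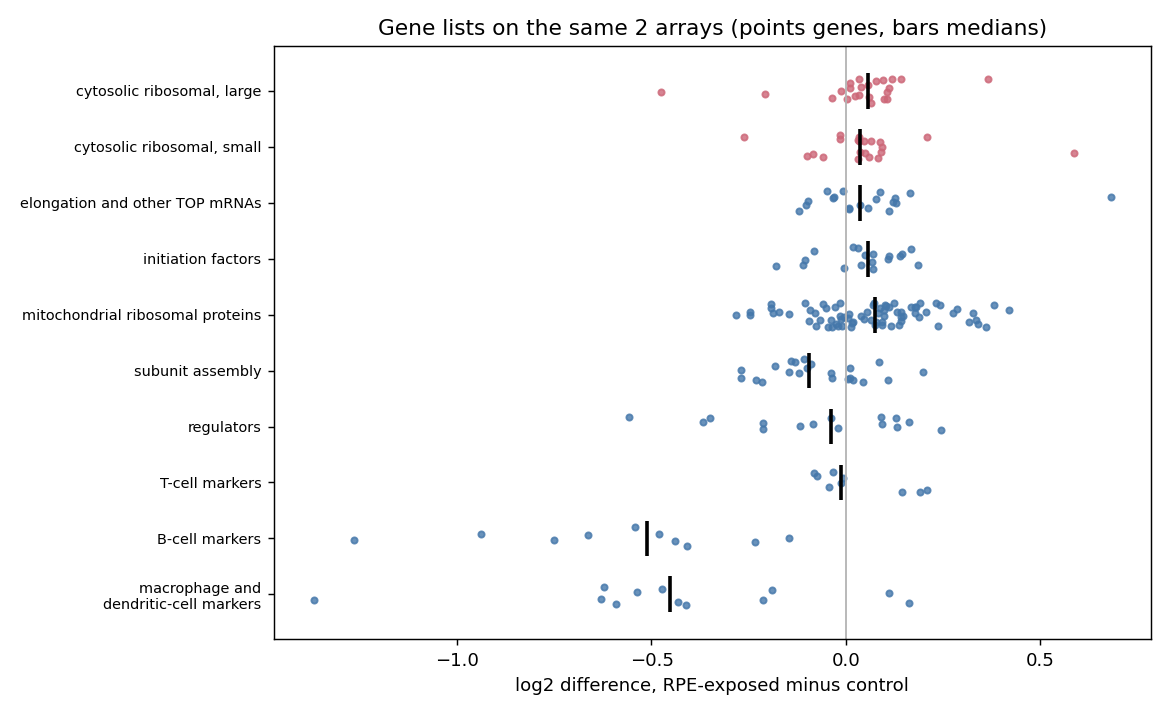
Log2 differences, RPE-exposed minus control, of the genes of each list above the floor on at least 1 array (points) and list medians (black bars), cytosolic ribosomal proteins in red. The medians of the large and small subunit, 0.058 and 0.036, lie beside those of elongation and initiation factors, and B-cell markers lie lowest.

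Every cell type makes ribosomal proteins, so markers of the cell types that either sample could hold are given beside them. Of 9 T-cell markers, 0 passed 1.2-fold, with a median of -0.013 and summed signals of 13602.9 and 14154.7. Over all genes compared, 16.7% were lower and 14.2% higher, and at 500 or more 5.17% and 6.21%. The T-cell list holds Cd4 (-0.082) and no CD8 gene. Chosen after its values were seen, Cd8a gave 568.8 and 694.6 (0.29) and Cd8b1 gave 706.4 and 983.9 (0.48), both past 1.2-fold higher in the exposed sample. Of 11 B-cell markers 10 were above the floor, all 10 negative and 8 of them 1.2-fold lower, with a median of -0.51 and summed signals of 2368.8 and 1556.1. Of 14 macrophage and dendritic-cell markers 12 were above the floor and 8 were 1.2-fold lower, with a median of -0.45 and summed signals of 4419.4 and 3346.6. Among genes with a mean signal under 500 that are not ribosomal members, 19.2% were 1.2-fold lower. Most of both macrophage and dendritic-cell sums came from H2-Aa, H2-Ab1, H2-Eb1 and Cd74, which do not separate these cells from B cells. The 2 positive markers of that list, Csf1r (29.1 and 31.4, 0.11) and Adgre1 (15.2 and 17.8, 0.16), were near the floor, as were several negative ones. Of 13 RPE markers, 10 were under the floor on both arrays, among them Rpe65, Rlbp1, Tyrp1 and Dct. In bulk RNA, fewer cells of a type and less RNA per cell cannot be told apart, and the part of these cells in the ribosomal protein signals was not tested.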

How the data were processed

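The authors deposited linear intensities, 1 signal per probe set for each of the 2 arrays; a mean near 100 on both after trimming the lowest and highest values shows they share a scale. The summarisation software is not given in the sources used here. Symbols were taken from GEO's annotation of the platform (GRCm38.p6 RefSeq identifiers matched all 46 members). Log2 differences were computed in pandas 2.3.3 and numpy 2.4.6 (Python 3.11.15) and plotted with matplotlib 3.10.9. Each gene stands by its brightest probe set (mean log2 signal), signals under the array's median were set to it, and genes at or above that floor on at least 1 array were compared. With 1 array per group no test was run, and genes were counted by fold.

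Named members were the 5 highest and 5 lowest differences and the 3 brightest of each subunit, the stalk genes and Rpsa, members under the floor, paralog pairs, and members with roles outside the ribosome; in other lists up to 2 genes at each end. The members and lists were chosen with earlier results of these data known. Steps were tested on simulated data. Results were recomputed with other floors, scalings, probe-set rules and a pseudocount of 16 (8 settings), and with 1 more setting chosen after seeing the data.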

Additional observations from a re-analysis of the deposited data

How the results depend on the processing

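The median over ribosomal protein genes ran from 0 to 0.054 over the 9 other settings, and the small-subunit median from 0.0075 to 0.047. After quantile normalization the overall median was 0 and the large-subunit median -0.0079. At that setting 2 of 44 members were 1.2-fold lower, beside 15.4% of all genes. With no floor 2 of 46 members were 1.2-fold lower, beside 26.2% of all genes. The 2 that were at least 2-fold different were the dim Rpl3l and Rps16. The 2-fold share of all genes is not given for this setting. The count 1.2-fold lower was also 2 when the floor was the 25th percentile, and when probe sets with names ending in x, s or a were left out, which left 23 members, 3 of them 1.2-fold higher. With only probe sets of mean signal 500 or more, a setting added after seeing the data, 0 of 37 were lower and 0 higher. Over all genes at that setting 5.17% were lower and 6.21% higher. Among single members, Rps25 (-0.27 after quantile normalization) and, with the latter probe sets left out, Rps18 (-0.26) and Rps3 (0.29) passed 1.2-fold. No paired analysis was possible because each group is 1 array. With no replicate, no difference here can be set against variation between cultures.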
